A study of Sus scrofa with 6 samples.

Results

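Broad open domains are stretches of chromatin in which called peaks of accessibility join into a region of at least 5000 bp. They were chosen by their breadth. The peak lists of 6 single-cell ATAC-seq libraries were joined wherever peaks shared 1 bp or more, which gave 294825 regions. Every library had a peak in 78533 of them, and 76721 of these were autosomal. In all, 2274 of the autosomal shared regions reached 5000 bp and were taken as domains. Another 36 merged regions were as wide but lacked a peak of at least 1 library, and 28 were shared by all 6 libraries but were not autosomal. Somites, the paired blocks of mesoderm beside the neural tube, were sampled from purebred Tibetan pigs (ZZ) and from Duroc × Tibetan crosses (DZ) at embryonic days 18 (E18) and 21 (E21). Myotomes, the muscle-forming layer of the somite, were sampled from both breeds at embryonic day 28 (E28). No transgene, allele or treatment was involved. The embryos behind a library came from the same sow and were pooled, and there was 1 library for each stage and breed, so a p-value measures the spread between the libraries of a stage after a term for breed. Tissue changed together with stage at E28, and these cannot be told apart.

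In ATAC-seq the Tn5 transposase cuts DNA that is not wrapped tightly, and a peak is a run of sequence with many cuts. Most peaks are short and mark one promoter or enhancer. Wide open stretches are known to lie over CpG islands, over clustered genes of development such as the HOX genes, and over strongly used genes with several enhancers close together. A CpG is a cytosine followed by a guanine, a pair that is rare in most of the genome and frequent in the islands at gene starts. HOX genes give body segments their identity along the axis, and PAX3 and PAX7 mark the cells of the somite that found the muscle lineage.

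Kept barcodes numbered 9286 to 11243 per library and held 89816504 to 133037579 counts, which are Tn5 cut sites inside peaks. Between 135 and 189 barcode sequences were shared by any pair of libraries. The 17 genes of the myogenic marker list had counts in all 6 libraries, with a summed level of 1050 to 1179 CPM, counts scaled to the same library total. Of the lists for other cells, 15 of 16 endothelial and blood markers, 10 of 10 epithelial and 16 of 16 annotated neural markers had counts in every library, and GATA1 was at 0 in all 6. The summed neural markers stood at 744 and 784 CPM in E18 ZZ and DZ and at 336 and 457 in E28 ZZ and DZ. The sum over barcodes cannot tell fewer cells of a type from less accessibility per cell.

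The sequences below come from 4 domains in which bases covered at E18 were not covered at E28, with the domain of SIN3A added because it held the most counts per covered base. Each is the middle 150 bases of the longest unique stretch outside exons. The first of each pair was covered in all 6 libraries and the second was covered in both E18 libraries and in neither E28 library, whatever its cover at E21. They were read from the plus strand of Sscrofa11.1, and the capitals mark CpG.
HOXB1, shared by all 6 libraries, chr12:24788592-24788741, outside genes: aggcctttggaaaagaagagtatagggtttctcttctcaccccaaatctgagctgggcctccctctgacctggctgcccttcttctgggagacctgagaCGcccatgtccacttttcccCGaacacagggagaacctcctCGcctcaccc
HOXB1, both E18 and no E28 library, chr12:24784611-24784760, outside genes: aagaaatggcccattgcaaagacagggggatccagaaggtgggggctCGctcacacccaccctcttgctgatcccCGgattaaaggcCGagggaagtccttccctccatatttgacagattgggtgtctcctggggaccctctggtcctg
PAX7, shared by all 6 libraries, chr6:77162861-77163010, intron: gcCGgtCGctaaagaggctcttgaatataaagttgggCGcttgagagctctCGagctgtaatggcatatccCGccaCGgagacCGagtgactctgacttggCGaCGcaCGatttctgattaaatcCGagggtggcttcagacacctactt
PAX7, both E18 and no E28 library, chr6:77159194-77159343, promoter: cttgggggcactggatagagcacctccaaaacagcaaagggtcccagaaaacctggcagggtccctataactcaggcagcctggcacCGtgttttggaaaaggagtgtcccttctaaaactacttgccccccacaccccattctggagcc
PAX3, shared by all 6 libraries, chr15:124188615-124188764, intron: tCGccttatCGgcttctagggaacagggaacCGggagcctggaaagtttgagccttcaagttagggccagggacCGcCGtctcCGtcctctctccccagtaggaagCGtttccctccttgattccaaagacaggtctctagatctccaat
PAX3, both E18 and no E28 library, chr15:124191528-124191677, intron: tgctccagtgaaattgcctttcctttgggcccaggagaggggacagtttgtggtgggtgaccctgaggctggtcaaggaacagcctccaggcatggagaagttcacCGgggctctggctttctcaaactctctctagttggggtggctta
PRDM13, shared by all 6 libraries, chr1:66535870-66536019, outside genes: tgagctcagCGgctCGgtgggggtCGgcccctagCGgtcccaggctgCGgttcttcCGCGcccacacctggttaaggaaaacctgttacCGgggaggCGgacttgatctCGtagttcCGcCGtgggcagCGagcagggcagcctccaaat
PRDM13, both E18 and no E28 library, chr1:66538059-66538208, promoter: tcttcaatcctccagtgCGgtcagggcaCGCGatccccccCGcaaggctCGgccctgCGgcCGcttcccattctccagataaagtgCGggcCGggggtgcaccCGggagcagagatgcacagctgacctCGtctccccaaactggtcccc
SIN3A, shared by all 6 libraries, chr7:58172905-58173054, intron: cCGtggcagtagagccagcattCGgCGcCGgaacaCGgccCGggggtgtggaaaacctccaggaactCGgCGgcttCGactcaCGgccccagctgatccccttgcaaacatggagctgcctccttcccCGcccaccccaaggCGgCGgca

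In the domain of PAX7 the shared stretch held 11 CpG and the stretch covered at E18 and not at E28 held 1, and in the domain of PAX3 the numbers were 7 and 1. The GC content of the PAX7 stretches was 52.7% and 55.3%, so the pair differed in CpG and hardly in GC. In the domain of PRDM13, a zinc finger factor of the dorsal neural tube, both stretches were CpG-rich, with 13 and 11. In the domain of HOXB1 both held 3. The SIN3A stretch held 13. Over all domains the same contrast was present as an average. The bases covered in all 6 libraries made up 50.7% of the 16.5 Mb of domain sequence, and their observed to expected CpG ratio was 0.579 at a GC content of 60.2%. The bases covered in both E18 libraries and no E28 library made up 25.4%, with a CpG ratio of 0.354 at 57.2% GC. The bases covered in both E28 libraries and no E18 library made up 0.927%, with a ratio of 0.336 at 45.5% GC. For all autosomes the ratio was 0.283 at 41.9% GC.

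The shared bases also lay closer to genes. In domains that held a gene start, the median distance to the nearest start was 1393 bp for bases shared by all 6 libraries, 2595 bp for bases covered in both E18 and no E28 library and 2931 bp for bases covered in both E28 and no E18 library. Exons took 22.8% of the shared bases, 15.7% of the second class and 8.85% of the third. Promoters, counted as the 2000 bp before a start, took 16.5%, 8.49% and 8.38%. Introns took 41.3%, 50.9% and 47%. These classes are set by the same peaks that chose the domains and are given as a description.

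The domains had a median width of 6330 bp, with quartiles of 5499 and 7748 bp and a largest width of 70111 bp. They occupied 8.15% to 9.23% of all bases covered by peaks in a library and held 9.64% to 10.1% of its counts. The median number of bases covered by called peaks per domain was 5928.5 in E18 ZZ, 5514.5 in E18 DZ, 5195.5 in E21 ZZ, 5235.5 in E21 DZ, 3880.5 in E28 ZZ and 3976.5 in E28 DZ. Both E28 libraries were thus below the other 4, and E18 ZZ was above all. In E18 ZZ 1741 domains consisted of 1 peak, against 1109 in E18 DZ. The numbers were 1013 (ZZ) and 1003 (DZ) for E21, then 615 and 743 for E28. A single peak of at least 5000 bp was present in 1775 (ZZ) and 1192 (DZ) domains at E18. At E21 there were 967 and 972 such domains, and E28 had 307 and 429. Such a peak was present in all 6 libraries in 227 domains (9.98%), and in no library in 219, which reached the width only after merging.

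**Figure D1:**
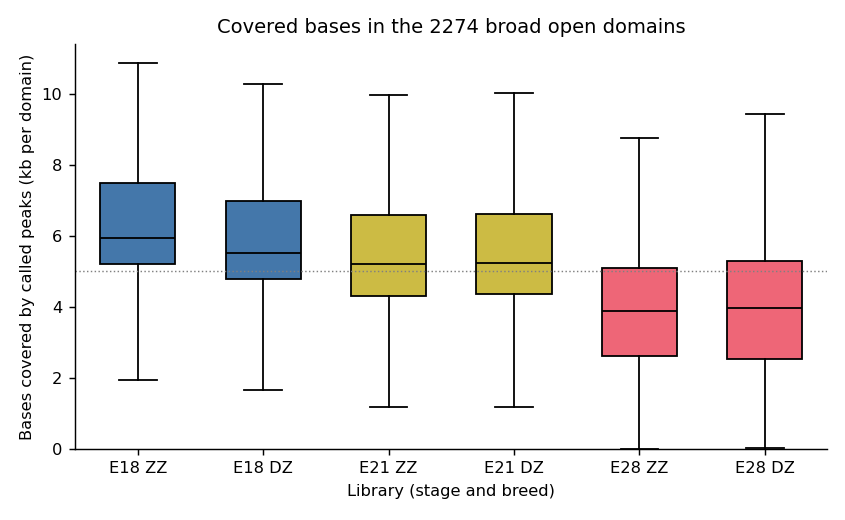
Bases covered by called peaks in each of the 2274 domains (vertical axis, kb) for each library (horizontal axis). Boxes span the quartiles, the line is the median, whiskers reach the furthest domain within 1.5 times the box height, domains beyond are not drawn, and the dotted line marks 5 kb. The medians of the E28 libraries, 3880.5 and 3976.5 bp, lie below those of the other 4.

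From E18 to E28 the covered length of a domain went to a median of 0.659 of its E18 length, taking the mean of both breeds at each stage. Because the domains were selected on their width in any library, these ratios are given without a test. The median ratio was 0.619 in ZZ and 0.694 in DZ. It was 0.91 from E18 to E21 and 0.736 from E21 to E28, so most of the narrowing lay in the second interval. At E28, 2149 domains (94.5%) were narrower than at E18 and 125 were wider. Among all autosomal shared regions 78.5% were narrower, and the median ratio of the shared regions under 5000 bp was 0.782. In 2048 domains both breeds were narrower, in 62 both were wider, in 149 ZZ was narrower and DZ wider, and in 15 the reverse held. Both E28 libraries covered fewer bases than both E18 libraries in 2022 domains (88.9%), against 67.0% of all autosomal shared regions. Under 50% of the E18 length was left in 670 domains (29.5%). A steady order from E18 to E21 to E28 in both breeds was present in 1289 domains (56.7%). For the domains narrower in both breeds, under 50% or in steady order, the share of all shared regions was not worked out. These counts are therefore not read as particular to the domains.

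The selection was also made in 1 breed and read in the other. Domains chosen from the 3 ZZ libraries numbered 2009, and in the DZ libraries, which had no part in choosing them, their median covered length was 5570 bp at E18, 5236 at E21 and 4039 at E28. The median ratio in DZ was 0.694, and 92.5% were narrower at E28. Domains chosen from the 3 DZ libraries numbered 1631, and in the ZZ libraries their median covered length was 5975, 5483 and 4250 bp, with a ratio of 0.701 and 95.2% narrower. Of the shared regions under 5000 bp, 72.7% were narrower at E28 in DZ and 81.5% in ZZ. Both breeds had the most covered sequence at E18 and the least at E28, so reading in the other breed does not take out the selection on width. Across the 2274 domains the log2 ratio in ZZ and that in DZ were correlated (Pearson's r 0.78, Spearman's rho 0.82). This is given as a description, since from E18 to E28 the counts inside peaks fell in both breeds. Counts inside peaks moved with breadth from E18 to E28. Such counts depend in part on how much sequence was called, so they do not measure sequencing depth apart from breadth. The counts over all deposited barcodes were 137555130 in E18 ZZ and 96019705 in E28 ZZ, and all peaks together covered 191 and 102 Mb. Between E21 DZ and E28 DZ they were 137241640 and 117177230, and the covered sequence was 158 and 108 Mb. From E18 DZ to E21 DZ the counts rose from 134721407 to 137241640, while the covered sequence fell from 168 to 158 Mb. The part of depth in the narrowing was not tested.

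Shared regions of greater width were richer in GC and CpG and more often held a gene start. The median GC content was 45.9% in the 25567 regions under 1000 bp, 50.3%, 53.7% and 56.1% in the next classes, and 58.1% in the domains. The median CpG ratio was 0.247 in the narrowest class, 0.455 in the class of 3000 bp up to 5000 bp and 0.461 in the domains, so CpG hardly differed between the last pair. A gene start lay in 1.31% of the narrowest class, in 39% of the class just below the domains and in 51.1% of the domains, and longer regions have more room for one. The median repeat content was 13.6% in the narrowest class and 13.2% in the domains, against 35.7% of the autosomes. The median E28 to E18 ratio of covered bases went the other way, from 0.814 in the narrowest class through 0.78, 0.756 and 0.7 to 0.659 in the domains. Merged width and this ratio come from the same peaks, and E18 ZZ by itself covered a median of 98.7% of a domain. A fall of the ratio with width can therefore follow from the sorting, and it is given as a description. The median level was 4.01 CPM per covered kb in the narrowest class, 6.78 in the class just below the domains and 6.68 in the domains.

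**Figure D2:**
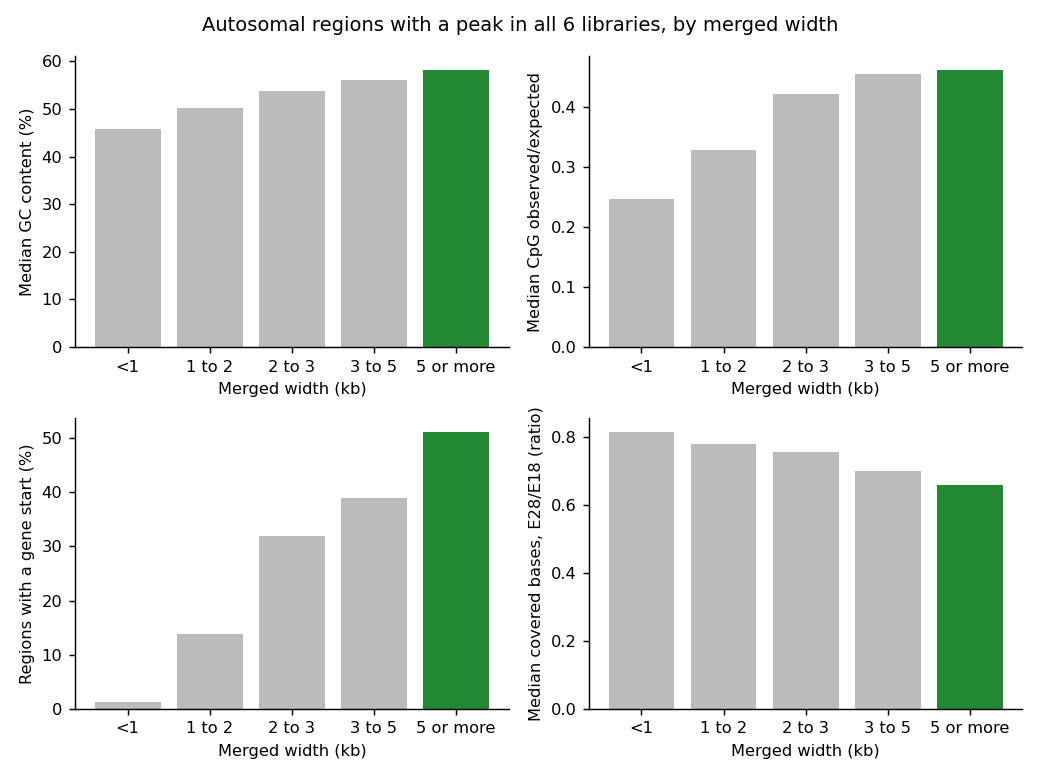
Autosomal regions with a peak of all 6 libraries in classes of merged width (horizontal axes, kb), with the domains in green. The panels plot the median GC content, the median observed to expected CpG ratio, the percent of regions with a gene start and the median ratio of covered bases E28 to E18. The first 3 rise with width, to 58.1%, 0.461 and 51.1%, and the last falls to 0.659. Width and the last ratio come from the same peaks, so that fall is a description.

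A gene start lay in 1163 domains and 2 or more starts in 270. Another 833 domains touched a gene body without its start and 278 lay outside every annotated gene. At least 1 whole gene fitted inside 304 domains. Domains with a start held a median of 8.61 CPM per covered kb, against 5.28 in those in gene bodies and 5.22 in those outside genes. Their covered length at E28 was a median of 0.728 of that at E18, and the median was 0.535 in gene bodies and 0.587 outside genes. By chromosome, the share of shared regions that were domains ran from 1.45% on chromosome 16 to 4.74% on chromosome 12.

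In total 1508 of 26905 annotated autosomal genes (5.6%) started in a domain, and 10.1% of the 14900 genes that started in a shared region. Transcription factors of development were far above that share. The start lay in a domain for 33 of 38 HOX-cluster genes (86.8%), 66 of 117 homeobox and paired box genes outside HOX (56.4%), 56 of 101 T-box, GATA and zinc finger factors (55.4%), 23 of 55 SOX and FOX factors (41.8%) and 22 of 59 basic helix-loop-helix factors (37.3%). Signalling ligands and antagonists reached 28 of 86 (32.6%). Of the cell-type lists, 10 of 14 somite and sclerotome markers, 9 of 15 neural, 6 of 17 myogenic, 5 of 15 endothelial and blood and 1 of 10 epithelial markers started in a domain. Muscle contraction genes and ubiquitously used genes had lower shares than these factor lists, 6 of 58 (10.3%) and 5 of 57 (8.77%). All 57 ubiquitous genes started in a shared region. Of the genes that started in a shared region the shares were 14% and 8.77%, against the 10.1% above. The lists overlap in some factors, such as PAX3 and TAL1.

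**Figure D3:**
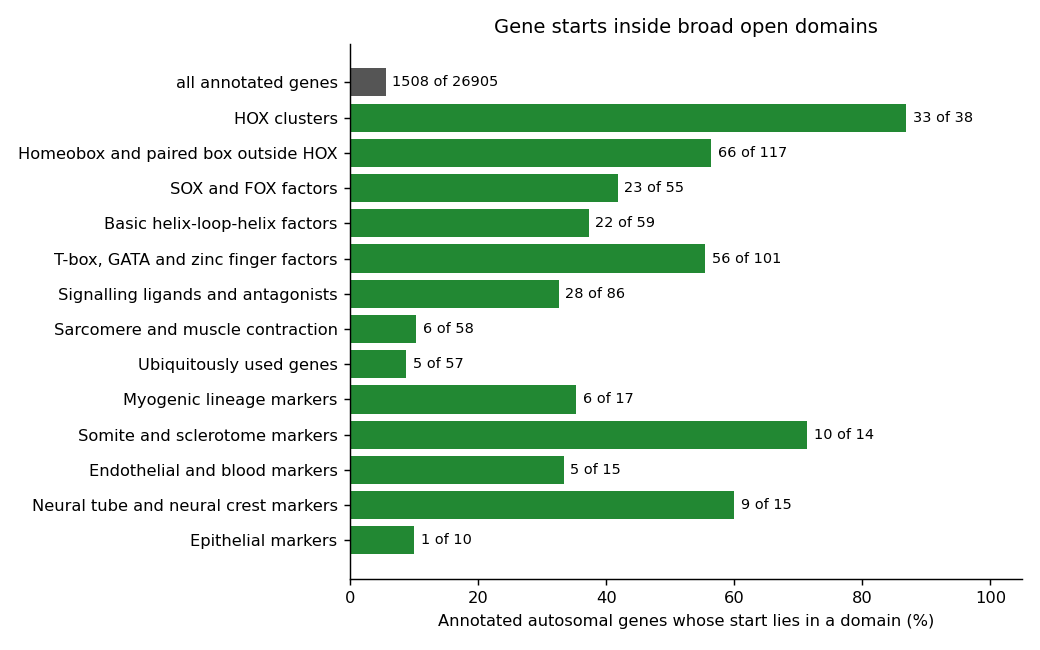
Percent of the annotated autosomal genes of each list whose start lies in a domain (horizontal axis), with the numbers of genes beside the bars. The bar for all annotated genes stands at 5.6%, the HOX clusters at 86.8% and the ubiquitously used genes at 8.77%.

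Examples from the lists show how wide the domains of single factors were. UNCX, a homeobox factor of the posterior somite, lay in a domain of 21318 bp, and FOXC1, a forkhead factor of the paraxial mesoderm, in one of 21189 bp. HMX1 and ZFHX3, both homeobox factors, had domains of 20815 and 19108 bp. PAX2, needed for the kidney, had 18719 bp and PAX6, needed for eye and neural tube, 18512 bp. HAND2, a factor of heart and limb bud, had 16676 bp and TAL1, the factor of blood formation, 13421 bp. EBF3, a zinc finger factor, had 19382 bp, and GATA2, a factor of blood progenitors, had 16767 bp. Among ligands, SHH, the hedgehog signal of the notochord, had 12558 bp, DLL1, the Notch ligand of the presomitic mesoderm, 12259 bp, and FGF8 11968 bp.

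Small RNA genes were also present. Of 270 annotated miRNA genes 30 started in a domain, and of the 72 miRNA genes that started in a shared region these were 41.7%. They lay in 21 domains. The 4 domains MIR183 with MIR96 and MIR182, MIR23A with MIR27A and MIR24-1, MIR143 with MIR145, and MIR125A with MIRLET7E and MIR99B each held a cluster processed from a common primary transcript. The HOX domains held MIR10A, MIR196A-2 and MIR615, and MIR10B lay in a domain of its own in the HOXD cluster. Of 440 tRNA genes 31 started in 11 domains.

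The HOX clusters gave the widest domains. The widest, chr12:24813526-24883636, spanned 70111 bp with the starts of HOXB3, HOXB5, HOXB6, HOXB7, HOXB8 and MIR10A. It was covered over 69437 bp in E18 ZZ, 66188 in E18 DZ, 70096 in E21 ZZ, 68549 in E21 DZ, 42446 in E28 ZZ and 48901 in E28 DZ. The number of peaks there was 2, 5, 1 and 3 at the earlier stages and 22 and 20 at E28, so that nearly continuous cover was replaced by many shorter peaks. The second, chr5:19200997-19253595, spanned 52599 bp with the starts of HOXC9, HOXC8, HOXC6, HOXC5 and HOXC4. It was covered over 50310, 44668, 51238, 52283, 45741 and 48994 bp in the same order of libraries. From E18 to E28 cover thus fell in ZZ and rose in DZ. The third, chr18:45424693-45460733, spanned 36041 bp with HOXA5 and HOXA4, and was covered over 35524, 34431, 36022, 35482, 26500 and 29193 bp.

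**Figure D4:**
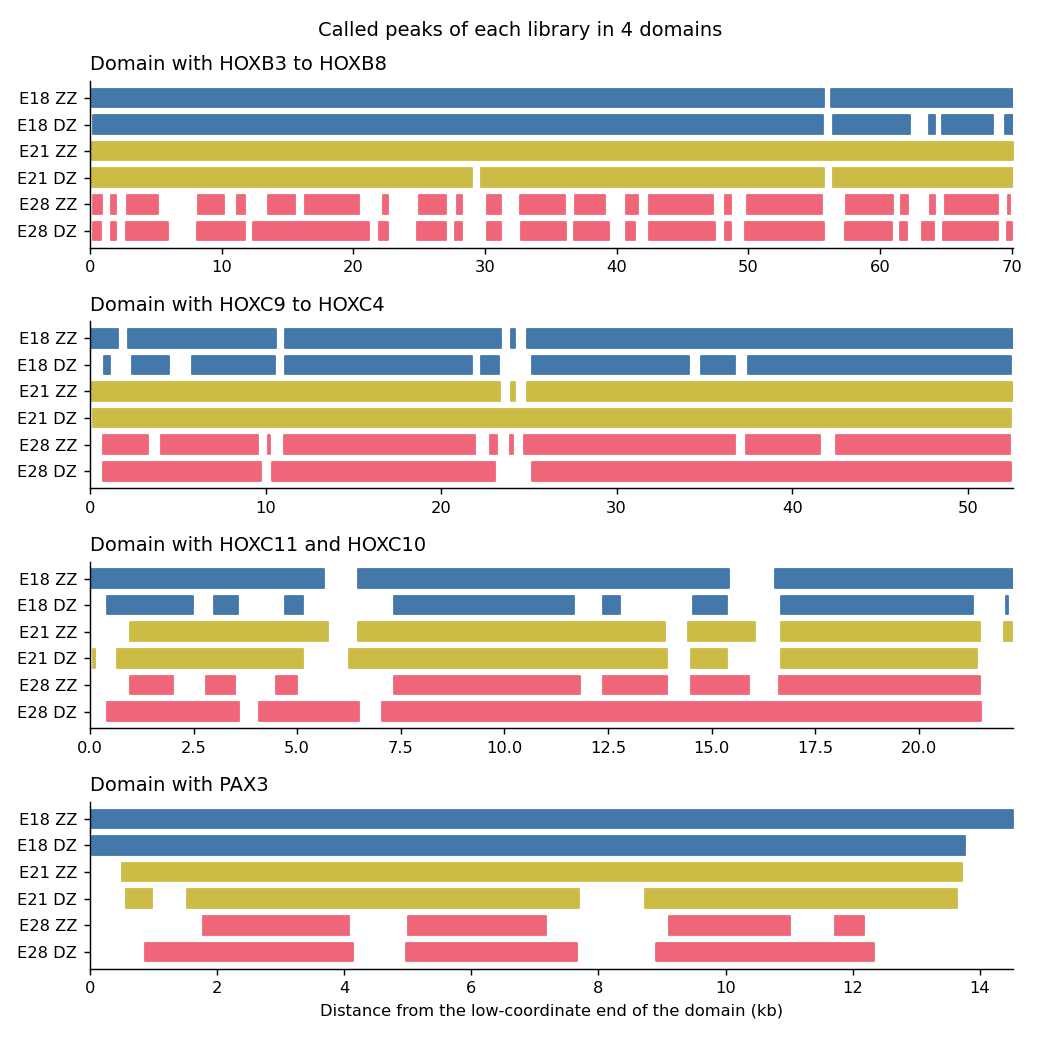
Called peaks of the 6 libraries (rows, coloured by stage) in 4 domains, with the distance from the low-coordinate end of the domain in kb on the horizontal axis. In the HOXB domain E28 shows 22 and 20 short peaks where E21 ZZ has 1. In the HOXC9 to HOXC4 domain cover is long at all stages, and in the HOXC11 and HOXC10 domain E28 DZ has more cover than E28 ZZ. In the PAX3 domain cover is split into 4 and 3 peaks at E28, and E21 DZ is also split into 3.

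Of the 38 annotated HOX-cluster genes, EVX1 and EVX2 included, the 33 with a start in a domain lay in 18 domains. From the first to the last HOX start, domains took up 87.9% of the HOXA cluster, 65.1% of HOXB, 82.7% of HOXC and 61% of HOXD. Single HOX domains differed in how breadth changed. HOXB1, a gene of the hindbrain end of the cluster, had 7201, 7125, 7125, 6250, 2284 and 3621 covered bp in order of stage with ZZ before DZ, and both E28 libraries were below the other 4. The domain of HOXD3 had 11117, 10437, 11064, 10784, 5655 and 5771, with the same separation. The domain of HOXC11 and HOXC10, genes of the lumbar and sacral axis, had 20371, 13301, 18838, 17844, 14482 and 20034, and the stages overlapped. The same overlap was seen for HOXA13 (8328, 6638, 8263, 6786, 4177 and 8396), for HOXA10 (8201, 6077, 8785, 7214, 6154 and 8769) and for HOXD9, HOXD10 and HOXD11 (7042, 5496, 5924, 5763, 5211 and 7690). All 18 HOX domains were narrower at E28 than at E18 in ZZ, whereas 9 of the 18 were wider in DZ. In every one of the 18 the DZ library covered fewer bases than the ZZ library at E18 and more at E28. Of all domains, DZ covered fewer bases than ZZ at E18 in 83.8% and more at E28 in 51.8%. Over all domains the median DZ to ZZ ratio of covered bases was 0.943 at E18, 0.999 at E21 and 1.003 at E28, and 149 domains (6.55%), against 11.6% of all autosomal shared regions, were narrower in ZZ and wider in DZ.

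The other wide domains belonged to diverse genes. AMOTL2, which encodes a scaffold of cell junctions, lay in a domain of 26141 bp that was covered over 26044, 24194, 23119, 22953, 16045 and 21883 bp. BAHCC1, a chromatin protein, had 25866 bp with cover of 25572, 23650, 24775, 24150, 21766 and 21422. COL18A1, the collagen XVIII of basement membranes, had 25748 bp with cover of 25748, 24919, 20157, 20459, 13819 and 12115. TBX2, a T-box repressor, had 25014 bp with cover of 25014, 22581, 19471, 19783, 15295 and 16659. A domain of 23092 bp next to IL17B had 21025, 21012, 15922, 20004, 9559 and 10800, and the HOXD domain with MIR10B, of 22589 bp, had 22443, 22286, 21935, 21236, 14464 and 17627. In all of these both E28 libraries were below the other 4. The domain of 24922 bp in the uncharacterised gene LOC102162336 on chromosome 10 went the other way, with 7324, 18426, 16208, 19072, 22043 and 24922, and E18 ZZ stood far below E18 DZ.

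The myogenic genes in domains were PAX3, PAX7, MYF5, LBX1, MSC and MEF2D. The domain of PAX3, the paired box factor of muscle progenitors, was chr15:124183025-124197551. It was covered over 14527 bp in E18 ZZ, 13736 in E18 DZ, 13219 in E21 ZZ, 11477 in E21 DZ, 6846 in E28 ZZ and 9395 in E28 DZ. That of PAX7, chr6:77157162-77164556, was covered over 7349, 7317, 6130, 4388, 3141 and 4691 bp, and E21 DZ and E28 DZ were close. LBX1, the homeobox factor of migrating limb muscle precursors, had 17548, 15860, 16047, 13336, 10782 and 13206. MYF5, the first myogenic regulatory factor of the somite, kept most of its cover, with 5002, 4735, 4690, 4585, 4082 and 4878. MSC, a repressor of the same class of factors, had 5264, 5216, 5257, 5093, 4245 and 5004, and MEF2D, a partner of the myogenic factors, had 4964, 4875, 4992, 5979, 4514 and 3945. Of the 17 listed genes the other 11, MYOD1 and MYOG among them, had no start in a domain.

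The largest gains and losses of breadth lay mostly away from gene starts. A domain on chromosome 3 whose nearest start was TMEM114 had 1252, 1309, 3911, 4084, 4934 and 5060 covered bp, widening at each stage in both breeds. A domain in ZNF536 had 1392, 1205, 4984, 5579, 3226 and 3656, widest at E21. Domains next to MEDAG (2558, 2251, 2656, 3313, 3500 and 5945), ARHGAP28 (2112, 2354, 1731, 2025, 3101 and 5230) and NOCT (2109, 2654, 1792, 3069, 4176 and 4606) completed the gains. The largest losses left hardly a peak at E28. A domain next to RPS6KC1 had 5046, 5223, 1754, 783, 7 and 246 covered bp with 1511, 1844, 505, 200, 3 and 54 counts. One in STARD10 had 5407, 5322, 3702, 3909, 202 and 311, one in LOC106509841 had 7293, 7772, 3530, 3869, 885 and 35, one over CSNK1D and SLC16A3 had 8189, 6722, 3035, 3044, 275 and 594, and one with the start of COLEC11, a collectin, had 6005, 6496, 4185, 3580, 306 and 473. E21 lay between E18 and E28 in each of these 5.

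Counts per covered base were compared between stages with the edgeR quasi-likelihood test, fitted to all 78533 shared regions with the covered length as an offset. The libraries were scaled in the planned fit by TMM on counts. Since E28 peaks cover less sequence for the same counts, this fit moved the median of all regions up by 0.43 on the log2 scale from E18 to E28, by 0.08 to E21 and by 0.33 from E21 to E28. In it 55.8% of domains were called higher at E28 than at E18 and 6.64% lower (45.8% and 6.39% of all regions), 292 higher and 177 lower at E21 than at E18 (13.0% and 4.69%), and 1167 higher and 25 lower at E28 than at E21 (30.2% and 2.26%). Scaling by counts per covered base, which sets the typical region to no change, gave a different split, and log2 folds below are relative to all regions in that sense. From E18 to E28 423 domains (18.6%) were then higher and 483 (21.2%) lower, against 19.5% and 17.9% of all regions. From E18 to E21 117 (5.15%) were higher and 228 (10%) lower, against 9.16% and 6.74% of all regions. This split rested on single libraries: leaving out 1 at a time gave 19 to 174 higher and 38 to 356 lower, and without the E18 ZZ library it was 101 higher and 98 lower. From E21 to E28 185 were higher and 141 (6.2%) lower, 14.3% in all, against 13.5% of all regions called and 6.54% lower. From E18 to E28 and from E21 to E28 the share of domains that changed was thus near that of all regions, and so was their median relative fold from E18 to E28 (-0.03 against 0.02).

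With TMM on counts, the change per covered base and the change in breadth hardly moved together across the 2274 domains (Pearson's r 0.03, Spearman's rho -0.01). Covered length is the divisor of the first, so a low r cannot show that they are unrelated. For the same reason a rise per covered base is not by itself a rise in the counts of a domain. The shares that follow are in the relative scaling. Leaving out the E18 DZ library lowered the share of domains called from E18 to E28 from 39.8% to 23.7%, and leaving out the E21 DZ library lowered that from E18 to E21 from 15.2% to 2.51% and that from E21 to E28 from 14.3% to 3.83%. Counts, peaks and covered bases come from the same reads, and the width rule was applied to those peaks.

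**Figure D5:**
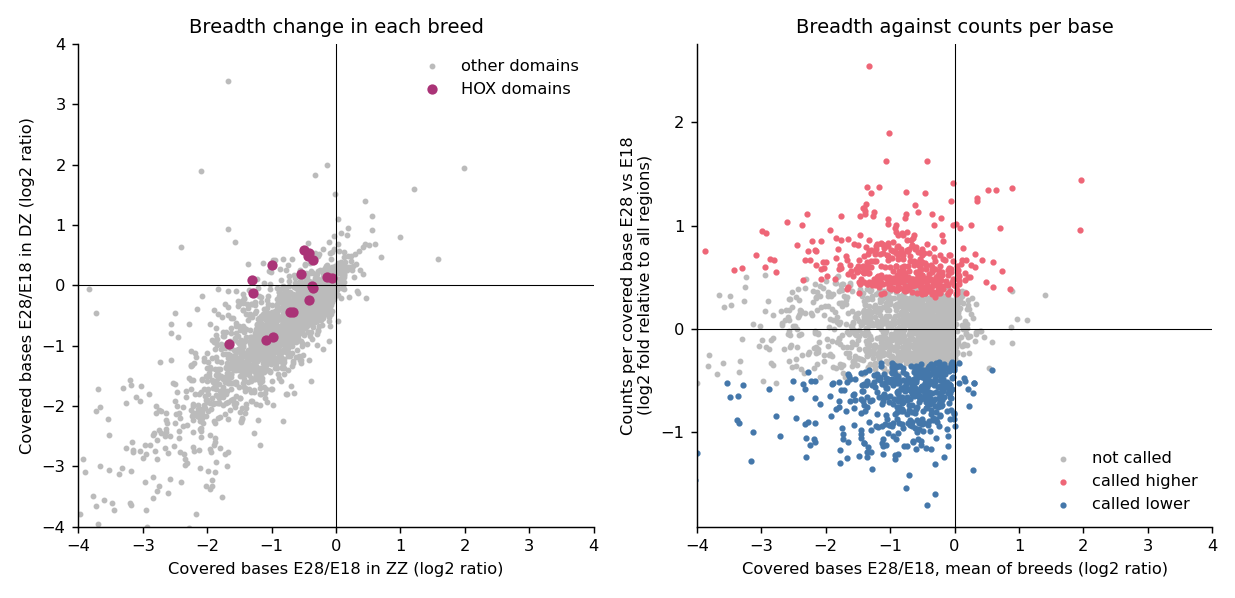
Left, log2 ratio of covered bases E28 to E18 in ZZ (horizontal) and DZ (vertical) for each domain, with the 18 HOX domains in purple and 21 domains beyond the axes. Right, log2 ratio of covered bases, mean of breeds (horizontal), against the relative log2 fold in counts per covered base from E18 to E28 (vertical), with 423 domains called higher, 483 called lower and 6 beyond the axis. Most domains lie left of 0 in both panels, the HOX domains lie on both sides of 0 in DZ, and calls in both directions lie across the range of breadth change.

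The domains that rose most per covered base were small and lay in or near genes rather than on their starts. For comparison, the median domain had 5.74 (ZZ) and 6.10 (DZ) CPM per covered kb at E18. It had 6.32 and 5.94 at E21, and 8.02 and 7.31 at E28, so E28 was highest in the typical domain too. A domain of 5123 bp whose nearest start was NFATC1, a factor that answers calcium signals, had 1.94, 2.28, 4.92, 3.58, 19 and 14.9 CPM per covered kb in order of stage with ZZ before DZ. Both E28 libraries were several times above the others, and the relative log2 fold from E18 to E28 was 2.55 ± 0.19 (SE, adjusted p = 2.9e-06, edgeR). A domain in TLE3, which encodes a Groucho corepressor, had 3.27, 3.27, 9.92, 10.7, 17.5 and 15.95, rising at each stage (1.90 ± 0.13, adjusted p = 2.0e-06). Domains in GLIS3, a zinc finger factor (1.63 ± 0.18), in LOC110260634 (1.62 ± 0.16) and near TMEM114 (1.44 ± 0.15) completed the rises. In the first 4 of these 5 the covered bases at E28 were fewer than at E18 in both breeds.

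Of the domains that fell most per covered base 1 held a gene start, that of PRDM13. A domain of 5208 bp whose nearest start was ZNF703, a zinc finger corepressor, had 11, 10.7, 6.73, 6.18, 4.61 and 4.52 CPM per covered kb, and fell by 1.70 ± 0.13 on the log2 scale (adjusted p = 3.0e-06, edgeR). A domain near PLPP3, a lipid phosphatase, had 8.77, 10.3, 8.21, 6.41, 5.41 and 3.39 (-1.60 ± 0.16). One in MSI2, an RNA-binding protein of progenitor cells, had 7.8, 9.63, 8.04, 7.67, 4.52 and 3.69 (-1.53 ± 0.14), and one in LOC106509841 reached -1.46 ± 0.21 on few covered bases at E28. The domain of PRDM13 had 5.76, 7.05, 5.99, 4.62, 3.15 and 3.38 (-1.42 ± 0.14, adjusted p = 1.6e-05).

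The lists differed in the direction of their domains per covered base from E18 to E28, and for each the count is read against 19.5% higher and 17.9% lower among all regions. Of 66 homeobox and paired box domains 2 rose and 25 fell, PAX6 by 0.66 ± 0.13 and PAX2 by 0.39 ± 0.12 on the log2 scale, and their median relative fold was -0.25 against -0.03 for all domains. Of 23 SOX and FOX domains 1 rose and 8 fell, FOXB1 by 0.92 ± 0.14 on the log2 scale. Of 55 T-box, GATA and zinc finger domains 5 rose and 19 fell, WT1 by 0.88 ± 0.12 and GATA2 by 0.52 ± 0.12. Of 27 ligand domains 1 rose, that of FGF18 (0.45 ± 0.12), and 10 fell, WNT5A by 0.67 ± 0.13 and DLL1 by 0.53 ± 0.13. Of 22 basic helix-loop-helix domains 3 rose, SCX of the tendon lineage (0.62 ± 0.13) and HES5 (0.54 ± 0.14) among them. Another 6 fell, HAND1 by 0.88 ± 0.14 and HAND2 by 0.71 ± 0.12. Cover at E28 was 1.07 times that at E18 in the SCX domain. It was 0.396 times in the HES5 domain, which also holds the start of PANK4. With TMM on counts the splits of these 5 lists were 24 higher and 2 lower, 8 and 2, 27 and 8, 8 and 3, and 14 and 4. In that scaling 45.8% of all regions were called higher and 6.39% lower, so calls turned with the scaling for regions in general. The homeobox, SOX and FOX and ligand lists stayed below that share called higher. The T-box list was near it and below the 55.8% of all domains called higher, and the basic helix-loop-helix list lay above both. In calls lower the homeobox list lay below 6.39% and each of the other lists above it, on few domains each.

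Of the 9 neural domains none rose and 5 fell, OLIG2 by 0.98 ± 0.14, NKX6-1 by 0.42 ± 0.12 and FOXD3, a neural crest factor, by 0.40 ± 0.13 on the log2 scale. The summed neural markers were lower at E28, as given above, and their part in the falls was not tested. The domain of ESRP1, an epithelial splicing factor, fell by 0.96 ± 0.14, and the 10 epithelial markers summed to 383 and 372 CPM at E18 and 210 and 211 at E28. Of the 5 endothelial and blood domains 1 fell, that of GATA2. Of the 10 somite and sclerotome domains that of MEOX1, a homeobox factor of the somite, rose by 1.01 ± 0.15. The domain of TBX6, a factor of the presomitic mesoderm, and YPEL3 rose by 0.38 ± 0.12, with cover at E28 of 0.536 of that at E18. Peaks over the TBX6 gene and the 2000 bp before it held 72.9 and 65.3 CPM at E18 and 32.6 and 26.6 at E28. For MEOX1 these were 42.1 and 38.2 at E18 and 61.9 and 70.3 at E28. The domain of NKX3-2, of the sclerotome, fell by 0.51 ± 0.12. With TMM on counts 1 neural domain was higher and 1 lower, and 6 somite domains were higher and none lower. Among all regions 45.8% were called higher and 6.39% lower in that scaling.

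In the myogenic list PAX7 rose per covered base (0.61 ± 0.14, adjusted p = 0.0040, edgeR). It had 3.11, 3.25, 4.19, 4.41, 7.15 and 6.15 CPM per covered kb, and both E28 libraries were above the other 4, as in the median domain. The call was lost without the E18 DZ library. Cover of the PAX7 domain at E28 was 0.534 of that at E18. Its summed counts were 22.9 and 23.8 CPM at E18 and 22.5 and 28.9 at E28. By the edgeR test of region counts their log2 fold was 0.10 ± 0.20 (adjusted p = 0.73), not past the test. The domain of PAX3 had 3.8, 4.46, 4.89, 4.67, 6 and 5.6 CPM per covered kb (0.04 ± 0.12, adjusted p = 0.81, edgeR), not past the test. The other 4 did not pass the test, with relative log2 folds of 0.20 ± 0.12 for LBX1, 0.28 ± 0.13 for MEF2D, 0.02 ± 0.14 for MYF5 and -0.04 ± 0.14 for MSC. With TMM on counts all 6 were called higher, against 45.8% of all regions. Of the 6 muscle contraction domains CASQ1, the calcium store of the fast fibre (0.61 ± 0.12), and MYL9, a smooth muscle myosin light chain (0.58 ± 0.13), rose per covered base. Their cover at E28 was 0.605 and 0.347 of that at E18. LDB3, of the Z disc (-0.81 ± 0.16), and the domain of TCAP and PNMT (-0.72 ± 0.18) fell. TPM1 and TPM2 gave 0.37 ± 0.14 and -0.10 ± 0.12, neither past the test. With TMM on counts 4 of the 6 were called higher and none lower, so LDB3 and TCAP were not called. Of 5 ubiquitous genes TUBB (0.62 ± 0.11), RPL3 (0.57 ± 0.12) and GAPDH (0.40 ± 0.12) rose per covered base. Their cover at E28 was 0.679, 0.688 and 0.501 of that at E18.

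Among the 18 HOX domains 4 rose and 2 fell per covered base, against 19.5% and 17.9% of all regions. With so few domains these counts are not read as a difference from all regions. The domain of HOXC9 to HOXC4 rose by 0.42 ± 0.13 on the log2 scale, with 4.43, 3.87, 5.90, 5.67, 7.56 and 7.64 CPM per covered kb. That of HOXA9, HOXA7, HOXA6 and HOXA3 rose by 0.37 ± 0.13 and that of HOXC11 and HOXC10 by 0.35 ± 0.12. HOXB1 fell by 1.35 ± 0.14, from 6.12 and 6.1 to 3.21 and 3.3, and HOXA2 fell by 0.55 ± 0.14. The MIR10B domain of the HOXD cluster, which holds no HOX start in the annotation, fell by 0.45 ± 0.12. The calls for the HOXC9, HOXC11, HOXA9, HOXA2 and MIR10B domains were each lost when 1 of the libraries was left out, whereas that for HOXB1 was kept. With TMM on counts 11 of the 18 were called higher and 1, HOXB1, lower, against 45.8% and 6.39% of all regions.

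The domains densest in counts were those of SIN3A, CARS2 with ING1, KAT6B, SPAG7 and SRF. SIN3A, the scaffold of a histone deacetylase complex, had 32.8, 33.4, 39.6, 45.2, 50.7 and 49.3 CPM per covered kb over nearly constant cover of 6359 to 6649 bp. The domain of CARS2 and ING1 had 25.5, 28, 39.9, 45.1, 50.7 and 57.4, and one in KAT6B, a histone acetyltransferase gene, had 16.3, 19.3, 31.1, 35.6, 43.7 and 44. SPAG7 had 19.7, 17, 27, 30, 46.9 and 48, and SRF, the factor that binds muscle and growth-response promoters, had 23.5, 23.4, 29.4, 31.5, 36.7 and 39.2. E28 lay above E21 and E21 above E18 in all 5. Relative to all regions KAT6B (0.86 ± 0.12), SPAG7 (0.91 ± 0.14) and CARS2 with ING1 (0.56 ± 0.12) rose, while SIN3A (0.14 ± 0.13) and SRF (0.24 ± 0.12) did not pass the test. The call for CARS2 with ING1 was lost without the E28 DZ library (adjusted p = 0.083, edgeR).

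Without the offset, the summed counts of a domain fell more often than they rose. By the edgeR test of region counts, 912 domains (40.1%) fell from E18 to E28 and 348 (15.3%) rose. Of all 78533 regions 37.1% were called, 18.1% lower and the rest, 14929, higher. The median log2 fold was -0.27 for the domains and -0.02 for all regions. These counts move with the sequence called, and Pearson's r between their log2 fold and that of covered length was 0.85 (Spearman's rho 0.77). Among the 1090 domains whose covered length differed by less than 1.5 times 309 rose and 150 fell. Because that choice leaves out the domains that lost most cover, it removes falls by construction, and nothing is read from the split. Per covered base the same 1090 had 163 higher and 222 lower in the relative scaling. Leaving out the E18 DZ library lowered the share of all domains called from 55.4% to 25.9%.

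No domain differed between DZ and ZZ per covered base, and no region of the 78533 did (0% by edgeR). At an unadjusted p under 0.05 there were 139 domains and 5097 regions in the relative scaling and 223 and 5331 with TMM on counts. DESeq2 called 1 domain in both, and 74 and 123 regions. The interaction of breed with stage could not be tested with 1 library for each.

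The share of kept barcodes with at least 1 count in a domain had a median of 19.3% in E18 ZZ, 19.8% in E18 DZ, 17.9% and 15.8% at E21, and 13.6% in both E28 libraries. Barcodes of the E28 libraries were shallower, with medians of 8084.5 and 8781.5 counts against 10913 and 11452 at E18. Thinned to 2000 counts each, the medians became 6.53%, 6.4%, 6.05%, 5.47%, 5.17% and 4.78% in the same order, so the difference was smaller and E28 was still lowest. The HOXB3 to HOXB8 domain had a count in 77.1%, 70.4%, 80.5%, 70.7%, 61% and 67.8% of barcodes, and thinned in 44.6%, 37.7%, 50.6%, 43%, 35.2% and 41.1%. The much shorter SIN3A domain reached 66.6%, 67.2%, 70.1%, 70.3%, 70.1% and 72.2%, and thinned 31.9%, 31.7%, 35.9%, 38.9%, 42.2% and 42.5%. Between 22 and 45 domains per library had a count in over 50% of barcodes.

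At the threshold of width, the 3 domains just inside spanned 5000, 5001 and 5001 bp and lay in CAMK1D, RGS9 and CLEC16A. Their covered bases were 3102, 2030, 3274, 4357, 3931 and 1868 in CAMK1D, 4954, 5001, 3720, 3415, 1565 and 1932 in RGS9, and 4984, 2313, 3174, 3895, 692 and 257 in CLEC16A. The 3 shared regions just outside spanned 4996, 4994 and 4994 bp, on chromosomes 2, 15 and 1. Their cover was 2411 to 4996, 4182 to 4990 and 3576 to 4955 bp. In 165 domains (7.26%) no library covered 5000 bp by itself. The next domain on the chromosome began within 10000 bp for 320 domains (14.1%), and the median gap was 171190.5 bp.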

How the data were processed

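Single-cell ATAC-seq libraries of pig somites and myotomes had been processed by the authors with Cell Ranger ATAC on Sscrofa11.1, which calls peaks in each library separately. The deposited matrices hold counts of Tn5 cut sites per peak and barcode, and the deposited peak lists hold positions. The labels also name Seurat 3.1.1 and Signac 0.2.2, which made none of the values used here. Barcodes with 2000 to 30000 counts were kept and their counts summed per peak and library. No doublet caller was run, and the upper limit was the only step here against doublets. Counts, covered bases and peaks were then summed over each merged region. The total of kept counts per library bounds the precision of every value, and counting error was not given separately because the spread between libraries was used.

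Gene starts, exons and repeats were taken from the RefSeq annotation and sequence of the same assembly. A domain was named by the genes starting inside, otherwise by the gene it lies in or the nearest start. Stage and breed were fitted together by the edgeR 4.0.16 quasi-likelihood test in R 4.3.3 over all 78533 shared regions, with Benjamini-Hochberg adjustment and a threshold of 0.05. With 6 libraries this leaves 2 residual degrees of freedom. Counts per covered base used the log of covered bases as an offset. The planned TMM scaling on counts moved the median region, so scaling by counts per covered base was added after the data were seen, and the relative values rest on it. On simulated data of 78533 regions with 200 changed from E18 to E28, the added fit recovered 97% of 2-fold and 33% of 1.5-fold changes with 2 false calls. The planned fit recovered 97% and 57% with 34107 false calls. The simulation held counts per covered base constant in the unchanged regions, which is also what the added scaling assumes. The false calls of the planned fit followed from that setting, so they cannot show which scaling is right.

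The members, gene lists and tests were chosen with earlier results of these data known. The text names the 10 widest domains, the 5 largest rises and falls per covered base and the 5 largest gains and losses of cover that went the same way in both breeds, domains of HOX and myogenic genes, the 5 densest, and the 3 on either side of 5000 bp. Examples from the other lists that rose or fell, and the miRNA domains, were picked after their values were seen. Alternatives were the width minimum, the overlap for merging, the barcode limits, peaks open in at least 1% of barcodes, other scaling, DESeq2 1.42.0, no breed term and each library left out. No per-sample column was left unused. The values of some single genes are not reported here.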

Additional observations from a re-analysis of the deposited data

Results flagged for a closer look

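Covered bases moved in opposite directions in the 2 breeds from E18 to E28 in 11 of the named domains. The differences were not tested, since each breed had 1 library per stage. In ZZ the HOXC9 to HOXC4 domain had 0.9092 of its E18 cover at E28, against 1.097 in DZ. The HOXC11 and HOXC10 domain had 0.7109 in ZZ and 1.506 in DZ. In the HOXD cluster the ratios were 0.7837 and 1.333 for HOXD12, and 0.74 and 1.399 for HOXD11, HOXD9 and HOXD10. In the HOXA cluster they were 0.4064 and 1.068 for EVX1, 0.5016 and 1.265 for HOXA13, 0.6884 and 1.139 for HOXA11, 0.7504 and 1.443 for HOXA10, and 0.9594 and 1.089 for the domain of HOXA9, HOXA7, HOXA6 and HOXA3. MYF5 had 0.8161 in ZZ and 1.03 in DZ. CAMK1D went the other way, with 1.267 in ZZ and 0.9202 in DZ.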

How the results depend on the processing

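Each stage and breed had 1 library, so stage effects rest on 2 residual degrees of freedom and a breed effect within a stage could not be tested. The breed term, in every fit but 1, sets each stage against the others within a breed and so acts as a block. Scaled per covered base, the share of domains called was 39.8% for E28 against E18 and 14.3% for E28 against E21, where TMM on counts gave 62.5% and 52.4%, because the latter moves the median region. DESeq2 called 0.044% of domains between breeds in both scalings. The number of domains was 9354 at a minimum of 3000 bp and 516 at 8000 bp, and the number of genes inside was 4881 and 480, or 2300 when any base of a gene counted, since these change what is counted. With TMM factors from counts the log2 folds of 11 of the 57 named domains turned from negative to positive. HOXB2 (0.26), the HOXD11, HOXD9 and HOXD10 domain (0.39) and MSC (0.37) were then called higher and COL18A1 (0.075) lost its call. BAHCC1, CSNK1D with SLC16A3, EVX1, EVX2, HOXA5 with HOXA4, HOXA13 and HOXD3 passed the test in neither scaling.

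Leaving out 1 library at a time gave median breadth ratios of 0.630 to 0.685. For TMM on counts the share of domains called ran from 43.5% to 59.7% (E28 against E18), 2.55% to 33.2% (E21 against E18), 18.1% to 49.1% (E28 against E21) and 0% to 0.880% (DZ against ZZ). Scaled per covered base it ran from 23.7% to 40.9%, 2.51% to 23.3%, 3.83% to 16.5% and 0% to 0.220%. For region counts it ran from 25.9% to 55.6%. Of 27 named domains that passed the test, 11 lost the call without some library: CAMK1D, RGS9, PAX7, COL18A1, LOC102162336, CARS2 with ING1, MIR10B and the HOXA2, HOXA9, HOXC9 and HOXC11 domains. Folds of 13 named domains changed sign when some library was left out, none of which passed the test with or without it: those of HOXB3 to HOXB8, TBX2, PAX3, EVX2, HOXD11 with HOXD9 and HOXD10, HOXA10, IL17B, CLEC16A, MSC, MYF5, HOXC12, NOCT and RPS6KC1.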

Other observations

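At least 2 domains reached their width through 1 library. The domain in MED25, which encodes a Mediator subunit, had 1642 (ZZ) and 880 (DZ) covered bp at E18, then 750 and 850 for E21, and 513 in E28 ZZ against 9172 in E28 DZ, which held 3048 counts there against 221 in E28 ZZ. The domain in MICAL1 had 1947, 1694, 1950, 1661, 456 and 6316 covered bp in order of stage with ZZ before DZ, and E28 DZ was again alone above the others. Both were chosen after their values were seen, as the largest opposite changes between the breeds.

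Among the domains with a miRNA gene, also picked after their values were seen, the domain of MIR23A, MIR27A and MIR24-1 had 1.15 times its E18 cover at E28. That of MIR199A-1 had 1.67 times, and that of MIR183, MIR96 and MIR182 had 0.706.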
